A study of Mus musculus with 6 samples.

Results

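Collagen genes were examined in the epididymal white fat of mice with a paternal duplication on chromosome 7 and of wild type mice. They were taken from the array by name: Col, a type number, the letter a and a chain number. Of 42 names of this form, 41 stand for collagens, measured by 75 probes. A gene was kept where a probe was well above background on at least 3 of 6 arrays, and its brightest such probe stood for it. This kept 35 collagen genes among 19194 genes and unnamed features tested. The other match, Col4a3bp, encodes a ceramide transfer protein and was counted in no class (log2 difference 0.04 ± 0.09, SE).

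Collagens are secreted proteins in which a trio of chains winds into a triple helix. Fibrillar types form the tensile fibers of connective tissue, and type IV forms the sheet of the basement membrane that wraps each fat cell. Type VI makes beaded microfilaments and is abundant in adipose tissue, while fibril-associated collagens with interrupted triple helices (FACIT) sit on the surface of fibrils. In fat, the matrix has to be remodelled as adipocytes enlarge, and its chains come mostly from fibroblasts and adipocyte progenitors.

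The 6 animals were male mice on a C57BL/6 background, 9 to 10 weeks old, with 1 array per animal. The 3 patDp/+ mice carried the duplication, inherited from the father, as a model of 15q11-13 duplication syndrome in humans, and the 3 wild type mice did not. Both groups thus shared sex, age and background. The sources used here do not say whether they were littermates or what they were fed. Epididymal white fat is a visceral depot beside the testis, and 200 ng of its total RNA was labelled with Cy3 for a one-colour Agilent array. The question was how expression in fat differs in young adult carriers.

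Genes of the duplicated stretch set the groups apart: Snrpn was 2.28-fold and Ube3a 1.41-fold higher in patDp/+ fat, with every patDp/+ array above every wild type array. No kept collagen probe lies on chromosome 7 (0 of 35). Across genes, the lowest correlation between 2 arrays was 0.988, and the negative controls had a mean net signal of 36.7 on the array of patDp/+ replicate 1 against 29.0 to 31.6 on the others. Each of 3 slides held 1 wild type and 1 patDp/+ array. All 8 adipocyte markers were well above background. Values below are log2 of the signal minus the 75th percentile of the same array, so that 0 marks that percentile. They are compared within a probe only, since probes differ in brightness. In bulk tissue, fewer cells of a type and less RNA per cell cannot be told apart.

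No collagen gene differed between the groups at an adjusted p under 0.05. In limma the smallest adjusted p of a collagen was 0.848, and 0 of all genes tested (0%) passed that threshold. At an unadjusted p under 0.05, 3 collagen genes were higher in patDp/+ fat (Col5a1, Col12a1 and Col14a1), against 2.68% of all genes. Another 2 were lower (Col4a3 and Col6a6), against 2.92% of all genes. The groups did not overlap for the same 5 genes, with 3 above against 5.23% of all genes and 2 below against 5.87%. Of the 35 differences 20 were positive (57.1%, against 47.3% of all genes), and their median was 0.07, against -0.0087 over all genes tested. Normexp background correction subtracts the local background of each spot, fits a model of signal and noise per array and adds an offset of 50. With normexp 28 of the 35 collagen differences were positive (80.0%, against 59.7% of all genes) and their median was 0.21. Over all genes tested, the normexp median was 0.34 for genes with a mean below the array's 75th percentile and -0.095 for those above it.

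**Figure D1:**
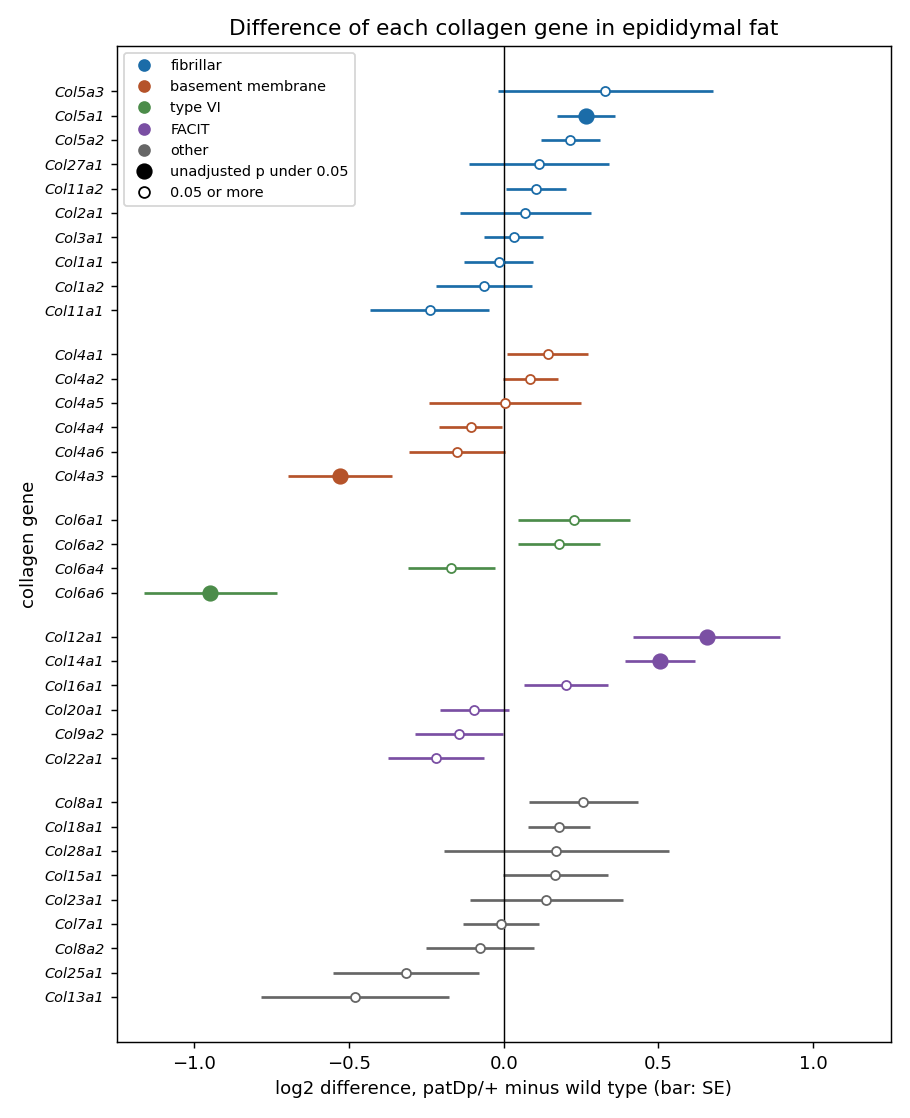
Log2 difference of each of the 35 kept collagen genes, patDp/+ minus wild type (x axis, log2), grouped by class and ordered within it. Points are differences between the means of 3 arrays each (2 in wild type for Col6a1), bars are limma's standard errors, and filled points have an unadjusted p under 0.05. The differences run from -0.95 for Col6a6 to 0.66 for Col12a1, and 5 points are filled.

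Fibrillar collagens numbered 10 kept genes, of which 7 had a positive and 3 a negative difference, with a median of 0.09. The chains of the common fibrils showed no difference beyond the spread of the arrays. Col1a1, which encodes the main chain of type I collagen, had log2 values of 4.74, 4.51 and 4.79 in wild type replicates 1 to 3 and of 4.70, 4.76 and 4.53 in patDp/+ replicates 1 to 3. The ranges lay within each other, and the difference was -0.02 ± 0.11 (SE), with a 95% interval of -0.29 to 0.25. Col1a2, its partner chain, had 6.97, 6.58 and 6.69 in wild type and 6.88, 6.74 and 6.43 in patDp/+ fat, a difference of -0.06 ± 0.16 (interval -0.44 to 0.32). Both signs rested on single arrays: without patDp/+ replicate 3 the differences were 0.05 and 0.06. Col3a1, the chain of type III collagen in fine fibrils, had 6.39, 6.38 and 6.50 in wild type and 6.60, 6.45 and 6.32 in patDp/+ fat. Its groups overlapped as well (0.03 ± 0.10, interval -0.20 to 0.27), and its sign turned with normexp (-0.13).

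Type V collagen is a minor component of type I fibrils that limits their width, and 1 of its 3 chains, Col5a1, had an unadjusted p under 0.05. Col5a1 had log2 values of 2.83, 2.98 and 3.06 in wild type and of 3.31, 3.23 and 3.13 in patDp/+ fat. All patDp/+ values lay above all wild type values, but the gap between the nearest arrays was narrow. The difference was 0.27 ± 0.09 (SE), or 1.20-fold, with an unadjusted p of 0.0285 in limma. It was 0.48, 0.25 and 0.07 within slides 1, 2 and 3, and p was 0.0755 with the slide as a block. Without wild type replicate 1 or 2, or patDp/+ replicate 1 or 2, p ranged from 0.0549 to 0.0914, and the other probe of Col5a1 gave 0.13 ± 0.18. With normexp the difference was 0.12.

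Col5a2, the partner chain, had 2.25, 2.28 and 2.50 in wild type and 2.63, 2.57 and 2.49 in patDp/+ fat. Only the lowest patDp/+ and the highest wild type value crossed (0.22 ± 0.10, unadjusted p = 0.0647 in limma). The gap between the Col5a1 and Col5a2 values was nearly constant, spanning 0.14 over all 6 arrays. Col5a3, the remaining type V chain, varied more: 4.43, 5.42 and 5.68 in wild type and 5.51, 5.19 and 5.82 in patDp/+ fat (0.33 ± 0.35). Wild type replicate 1 was the low array there, and without it the difference was -0.05. The gap spanned 1.09 for Col5a1 and Col5a3, 0.33 for Col1a1 and Col1a2, and 0.30 for Col4a1 and Col4a2. It spanned 0.65 for Col4a5 and Col4a6, 0.79 for Col4a3 and Col4a4, and 1.19 for Col8a1 and Col8a2. For chains of different collagen types it spanned 0.25 for Col3a1 and Col1a1 and 0.31 for Col3a1 and Col5a2. A narrow gap was thus not particular to chains of the same type.

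The promoter of Col5a1 is shown because this gene is among the 5 whose groups did not overlap. The 100 bases before its start (RefSeq, GRCm38.p6, chr2:27886325-27886424, plus strand) hold 1 match to GGGCGG, a letter pattern called the GC box, in capitals.
Col5a1: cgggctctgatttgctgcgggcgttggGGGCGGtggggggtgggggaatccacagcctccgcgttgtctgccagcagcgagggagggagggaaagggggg

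Collagens best known from cartilage were also above background. Col2a1, the chain of type II collagen, had a difference of 0.07 ± 0.21 (SE) and was well above background on all arrays. Col11a2, a type XI chain, had log2 values of -4.84, -4.77 and -4.70 in wild type and of -4.55, -4.62 and -4.82 in patDp/+ fat. The patDp/+ array of slide 3 was the second lowest of all (0.10 ± 0.10). Col11a1, the other type XI chain, had -5.31, -5.15 and -5.09 in wild type and -5.60, -5.00 and -5.68 in patDp/+ fat. Only 1 of the 3 patDp/+ arrays was well above background there. Its difference was -0.24 ± 0.19, and 0.65 with normexp. Col27a1, a fibrillar collagen of growing cartilage, had 0.12 ± 0.23. Of the listed cartilage and bone markers, Matn3, Ibsp, Bglap and Sp7 were not kept, while Acan, Comp, Sox9 and Chad were. The summed level of these 4, in multiples of the array's 75th percentile, was 0.770 to 0.873 in wild type and 0.516 to 0.741 in patDp/+ fat, and its part in these values was not tested. Singly, Sox9 had a difference of -0.77 ± 0.24 (SE), Chad -0.02 ± 0.19, Acan 0.10 ± 0.17 and Comp 0.41 ± 0.49.

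**Figure D2:**
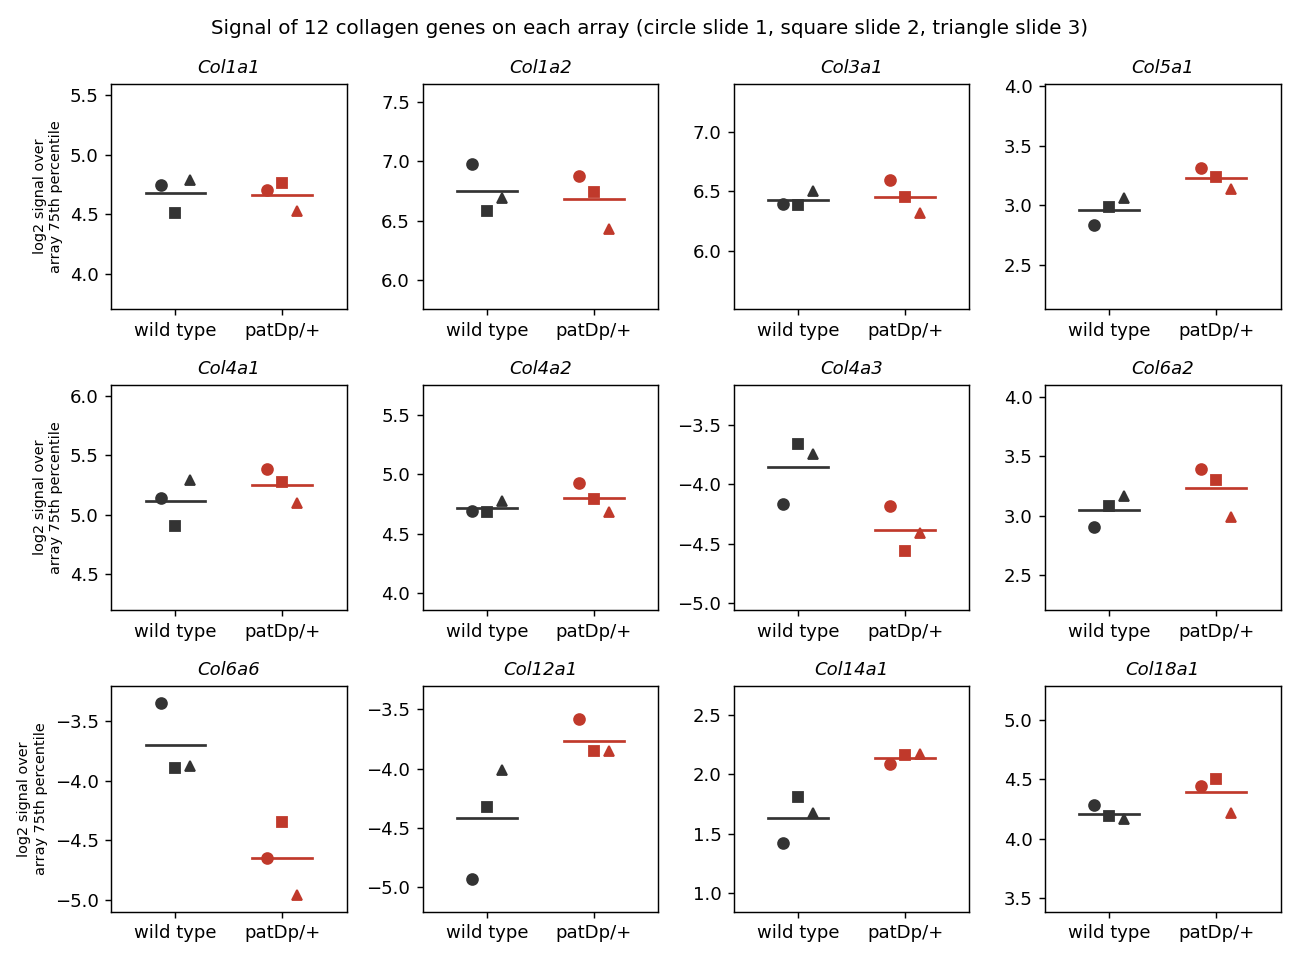
Log2 signal over the array's 75th percentile (y axis) of 12 collagen genes on each array of the wild type and patDp/+ groups (x axis), with circles for slide 1, squares for slide 2, triangles for slide 3 and lines for group means. Every panel spans the same number of log2 units. For Col5a1, Col12a1 and Col14a1 the 3 patDp/+ points lie above the wild type points, and for Col4a3 and Col6a6 below them.

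Basement membrane collagens, the 6 type IV chains, had 3 positive and 3 negative differences with a median of -0.05. Col4a1 and Col4a2 encode the chains of the general basement membrane network. Col4a1 had log2 values of 5.14, 4.90 and 5.30 in wild type and of 5.39, 5.28 and 5.10 in patDp/+ fat, and Col4a2 had 4.69, 4.68 and 4.77 against 4.92, 4.79 and 4.68. In both genes the patDp/+ arrays of slides 1 and 2 lay above their wild type neighbours and that of slide 3 below. The differences were 0.14 ± 0.13 and 0.09 ± 0.09 (SE), and that of Col4a2 was -0.04 with normexp.

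The genes Col4a1 and Col4a2 lie head to head, and their starts are 22 bases apart in the RefSeq table, counting both start bases. Col4a1 starts at 11312826 on the minus strand and Col4a2 at 11312805 on the plus strand. With these starts both transcripts run across the stretch, so it lies inside both and is not a spacer between them. That stretch is shown because both genes start from it, and it holds 1 GC box, in capitals (GRCm38.p6, chr8:11312805-11312826, plus strand).
Col4a1 and Col4a2: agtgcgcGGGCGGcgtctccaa

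Col4a3, a chain of the basement membranes of kidney, lung and inner ear, was dim in this fat. It had log2 values of -4.17, -3.66 and -3.75 in wild type and of -4.19, -4.57 and -4.41 in patDp/+ fat. All patDp/+ values were the lower ones, but the pair of slide 1 was nearly level. The difference was -0.53 ± 0.17 (SE), or 1.44-fold lower, with an unadjusted p of 0.0192 in limma and of 0.0552 with the slide as a block. Within slides 1, 2 and 3 it was -0.02, -0.91 and -0.66. It turned to 0.31 with normexp and was -0.19 with the deposited table. Without wild type replicate 2 or 3, or patDp/+ replicate 2, p ranged from 0.0611 to 0.0640.

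For the other type IV chains the groups overlapped at the probe that stands for the gene. Col4a4, which pairs with Col4a3 in the same network, had log2 values of 0.29, 0.46 and 0.58 in wild type and of 0.25, 0.34 and 0.42 in patDp/+ fat. The patDp/+ array was the lower one on every slide (-0.11 ± 0.10, SE), and a second probe gave -0.29 ± 0.12 with an unadjusted p of 0.0443 in limma. Col4a5 had -2.34, -2.40 and -2.03 in wild type and -2.30, -1.76 and -2.70 in patDp/+ fat, so that the patDp/+ group held both the highest and the lowest array (0.0039 ± 0.25). Col4a6, the X-linked neighbour of Col4a5, had 0.45, 0.18 and 0.68 against 0.19, 0.48 and 0.19 (-0.15 ± 0.15).

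Type VI collagens had 4 kept genes, with 2 positive and 2 negative differences and a median of 0.0046. Col6a1 and Col6a2 encode shared chains of the type VI microfilament. Col6a1 had log2 values of 3.41 and 3.76 in wild type replicates 1 and 3 and of 4.02, 3.84 and 3.57 in patDp/+ fat. The spot of wild type replicate 2 was marked as an outlier in the scanner file and left out of the fit (0.23 ± 0.18, SE). The deposited table, which holds a value for that array, gave 0.67. Col6a2 had 2.91, 3.08 and 3.17 in wild type and 3.40, 3.30 and 2.99 in patDp/+ fat, again higher on slides 1 and 2 and lower on slide 3 (0.18 ± 0.13). Without patDp/+ replicate 3 the difference of Col6a2 was 0.30 at an unadjusted p under 0.05 in limma. No probe carried the name Col6a3, and that chain was not analysed here.

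Col6a6, 1 of the long alternative chains that can take the place of the third chain, had the largest difference in size of all 35 genes. Its log2 values were -3.34, -3.89 and -3.88 in wild type and -4.65, -4.35 and -4.96 in patDp/+ fat. Every patDp/+ array lay below every wild type array, and 2 of 3 patDp/+ arrays were well above background. The difference was -0.95 ± 0.21 (SE), or 1.93-fold lower, with an unadjusted p of 0.00415 in limma and of 0.00717 with the slide as a block. It was -1.30, -0.46 and -1.09 within slides 1, 2 and 3. It turned to 0.24 with normexp (unadjusted p = 0.572 in limma), and it was -0.39 with the deposited table, whose background correction and scaling both may differ. Across 15 alternatives, 14 gave an unadjusted p under 0.05.

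The other long chains gave mixed values. Col6a4 had log2 values of -3.32, -3.78 and -3.40 in wild type and of -3.78, -3.55 and -3.68 in patDp/+ fat (-0.17 ± 0.14, SE). A second Col6a4 probe gave 0.13 ± 0.12, and normexp gave 0.40. Col6a5, listed on the array under the older name Gm7455 and so outside the 35 genes, had 0.42, -0.39 and 0.31 against -0.30, -0.22 and -0.71 (-0.52 ± 0.25, unadjusted p = 0.0761 in limma). Col6a4, Col6a5 and Col6a6 lie near each other on chromosome 9, where the probes that stand for them map between 105676597 and 105892970 (mm9) and the second Col6a4 probe ends at 105974338.

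The promoter of Col6a6 is shown because this gene had the lowest difference. The 100 bases before its start (RefSeq, GRCm38.p6, chr9:105828086-105828185, minus strand) hold 1 match to the reverse complement of the GC box, CCGCCC, in capitals.
Col6a6: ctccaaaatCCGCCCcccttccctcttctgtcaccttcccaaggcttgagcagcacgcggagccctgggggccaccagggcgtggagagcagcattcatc

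Of the 35 kept collagens 28 matched the RefSeq promoter table. Col12a1 and Col14a1 were among those without a match, so their promoters were not examined. Within the 250 bases before the start, GGGCGG on either strand was present in 20 of 28 (71.4%), against 35.4% of 27025 genes. CCAAT on either strand was present in 11 (39.3%, against 37.5%), and TATAA in 4 (14.3%, against 25.8%). The 28 collagens were detected in this fat, while the 27025 genes were taken whether detected or not, so the 2 sets are unlike. Whether this bears on the shares was not tested. These are counts of letters and say nothing of binding.

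FACIT collagens had 6 kept genes, with 3 positive and 3 negative differences and a median of 0.05. Col14a1, which encodes a collagen on the surface of type I fibrils and is a common marker of fibroblasts, had the smallest p of all collagens. Its log2 values were 1.42, 1.80 and 1.68 in wild type and 2.09, 2.16 and 2.17 in patDp/+ fat. The patDp/+ arrays lay close together and all above the wild type arrays. The means were 1.63 ± 0.20 and 2.14 ± 0.05 (SD, n = 3 each), a difference of 0.51 ± 0.11 (SE) or 1.42-fold, with an unadjusted p of 0.00412 in limma. The adjusted p was 0.848.

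The difference of Col14a1 was positive within each slide (0.67, 0.36 and 0.49). A second probe, at another place of the gene, gave 0.42 ± 0.14 (SE) with an unadjusted p of 0.0231 in limma. The unadjusted p stayed under 0.05 in 16 of 16 alternatives, with differences of 0.40 to 0.59, and was 0.00658 with the slide as a block. Among the 5 collagens whose groups did not overlap, Col14a1 alone kept both its sign and its side of this threshold in all alternatives.

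Col12a1, a close relative of Col14a1 and a collagen of tissues under tension, was dim. It had log2 values of -4.93, -4.32 and -4.01 in wild type and of -3.58, -3.85 and -3.85 in patDp/+ fat. The groups did not overlap, and wild type replicate 1 lay far below the rest. The difference was 0.66 ± 0.24 (SE), or 1.58-fold, with an unadjusted p of 0.0315 in limma and of 0.0612 with the slide as a block. Within slides 1, 2 and 3 it was 1.34, 0.47 and 0.16. Without wild type replicate 1 it was 0.40, and it was 0.26 with the deposited table. Without wild type replicate 2 or any 1 of the patDp/+ arrays p ranged from 0.0548 to 0.0900.

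Col16a1, a FACIT collagen of skin and smooth muscle, had log2 values of 2.07, 2.28 and 2.54 in wild type and of 2.40, 2.60 and 2.49 in patDp/+ fat. The groups overlapped (0.20 ± 0.14, SE). Col22a1, a collagen of muscle and tendon junctions, had -5.15, -4.86 and -4.60 against -5.15, -4.95 and -5.16 (-0.22 ± 0.15), and 0.61 with normexp. Col9a2, a chain of the type IX collagen of cartilage, had -3.44, -3.16 and -3.18 against -3.40, -3.19 and -3.64 (-0.15 ± 0.14), and 0.42 with normexp. Neither of these dim genes separated the groups. Col20a1 had -0.10 ± 0.11.

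The remaining class held 9 genes, with 5 positive and 4 negative differences and 0 at an unadjusted p under 0.05 in either direction in limma. Its median of 0.14 rested on the settings, from -0.06 with array weights to 0.24 with normexp. Col18a1 and Col15a1 encode collagens of basement membrane zones whose ends can be cut off as endostatin and a related fragment. Col18a1 had log2 values of 4.28, 4.19 and 4.16 in wild type and of 4.44, 4.50 and 4.22 in patDp/+ fat. The patDp/+ array was the higher one on each slide, though the groups overlapped (0.18 ± 0.10, SE, unadjusted p = 0.125 in limma). Col15a1 had 2.32, 2.77 and 2.71 in wild type and 2.996, 2.54 and 2.77 in patDp/+ fat (0.17 ± 0.17).

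Col8a1, a chain of the short type VIII collagen of vessel walls, had log2 values of 2.53, 2.01 and 2.53 in wild type and of 2.83, 2.48 and 2.54 in patDp/+ fat. The patDp/+ value was the higher one on each slide (0.26 ± 0.18, SE), and a second probe gave 0.38 ± 0.16. Its partner Col8a2 had -0.08 ± 0.18. The membrane-spanning collagens were Col13a1 (-0.48 ± 0.30), Col23a1 (0.14 ± 0.25) and Col25a1 (-0.32 ± 0.24). Col13a1 and Col25a1 lay near the limit of detection, with 1 of 3 patDp/+ arrays well above background for each. Both turned with normexp, to 0.56 and 0.68. Col7a1, the anchoring fibril collagen of skin, had -0.01 ± 0.12, and Col28a1 had 0.17 ± 0.36.

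The 6 collagens that were not kept were Col9a3 (well above background on 2 arrays), Col10a1 and Col19a1 (1 array each), and Col9a1, Col17a1 and Col24a1 (0 arrays). Col10a1 marks the enlarged chondrocytes of growing bone and Col17a1 the attachment of skin epithelium. For 18 collagens more than 1 probe was kept. All probes of a gene had the same sign in 14 of these, and the exceptions were Col4a6, Col6a4, Col23a1 and Col27a1.

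**Figure D3:**
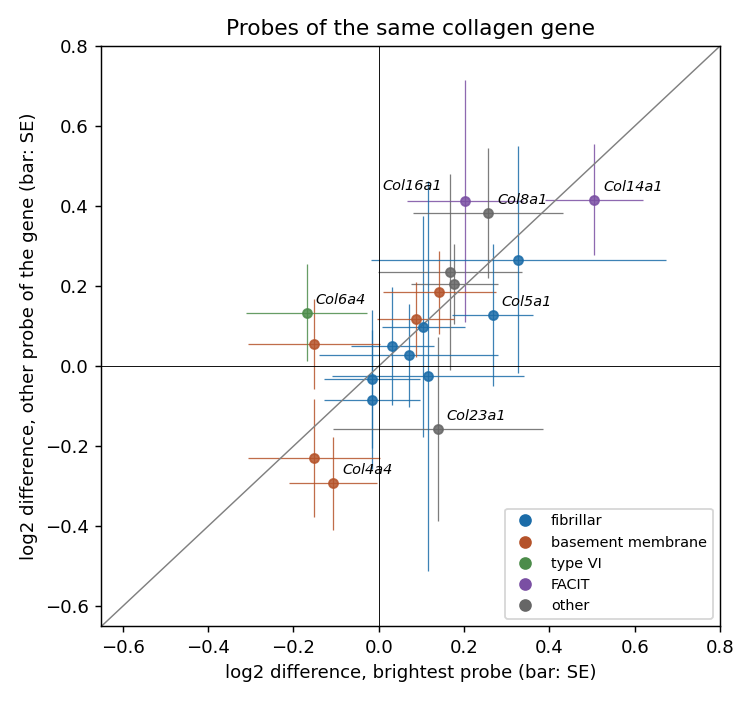
Log2 difference (patDp/+ minus wild type) of the brightest probe of a collagen gene (x axis) against that of another kept probe of the same gene (y axis), with limma's standard errors as bars, the line of equal values and colours for the classes. Both Col14a1 probes lie far to the upper right (0.51 and 0.42), and the Col6a4 probes have opposite signs (-0.17 and 0.13).

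The sign of the collagen differences changed with the slide. On slide 1, 22 of 35 collagens were higher on the patDp/+ array (62.9%, against 52.8% of all genes), and on slide 2, 25 of 34 were (73.5%, against 46.6%). On slide 3 only 8 of 35 were (22.9%, against 46.3%). The medians over the collagens were 0.21, 0.16 and -0.20. In the same order they were 0.29, 0.16 and -0.17 for fibrillar collagens, 0.01, 0.20 and -0.35 for type IV, 0.02, 0.22 and -0.23 for type VI, 0.19, 0.22 and -0.18 for FACIT, and 0.16, 0.12 and -0.24 for the rest. All 5 classes thus had a negative median on slide 3 and a positive one on slides 1 and 2, and what set slide 3 apart was not tested.

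**Figure D4:**
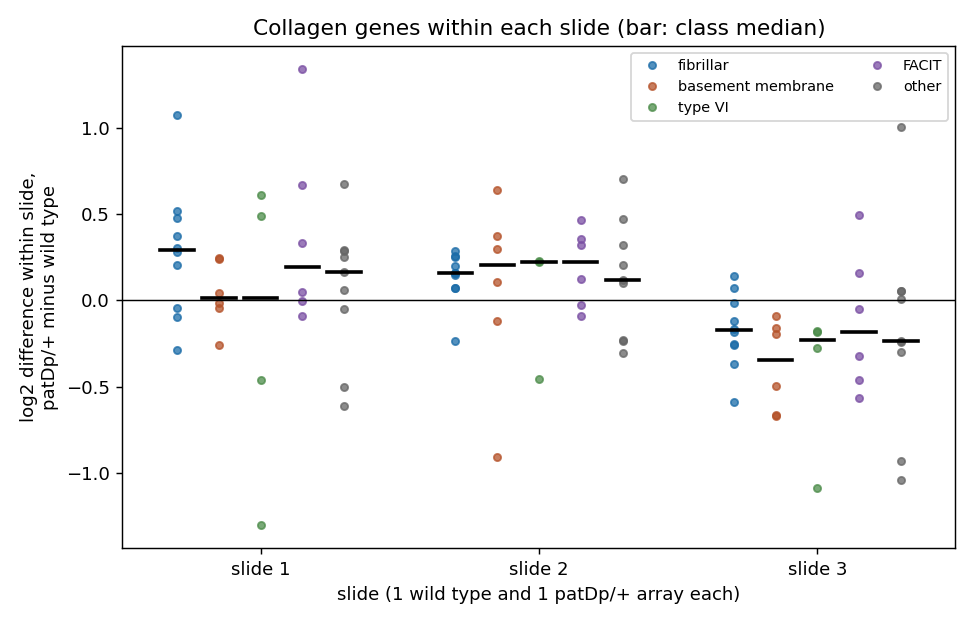
Log2 difference of each collagen gene between the patDp/+ and the wild type array of the same slide (y axis) for slides 1 to 3 (x axis), coloured by class, with bars at class medians. The class medians are positive on slides 1 and 2 (0.01 to 0.29) and negative on slide 3 (-0.35 to -0.17).

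The arrays behind this split were those at both ends of the range. Wild type replicates 1 and 2 held the lowest value of the 6 arrays for 12 and 11 of the 35 collagens (34.3% and 31.4%, against 22.6% and 16.9% of all genes), and patDp/+ replicate 3 for 9 (25.7%, against 18.4%). The highest value was on patDp/+ replicate 1 for 12 collagens (34.3%, against 18.1% of all genes) and on wild type replicate 3 for 9 (25.7%, against 13.2%). Higher on all 3 slides were 5 collagens (Col5a1, Col8a1, Col12a1, Col14a1 and Col18a1), against 11.2% of all genes, and lower on all 3 were 4 (Col4a3, Col4a4, Col6a6 and Col22a1), against 14.6%. Without patDp/+ replicate 3, 5 collagens were higher at an unadjusted p under 0.05 (Col5a1, Col6a2, Col14a1, Col18a1 and Col27a1), against 5.73% of all genes. Without patDp/+ replicate 1, Col14a1 was the 1 such gene, against 1.51%.

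Genes that act on collagens were taken from 6 lists, with 69 entries tested in all. Some genes entered under an older and a newer symbol, as named below, so the entries outnumber the genes. None passed the adjusted threshold in limma, and the counts that follow use an unadjusted p under 0.05. They are to be read against the shares of all genes tested: 2.68% higher, 2.92% lower and 47.3% with a positive difference. Enzymes that hydroxylate and glycosylate the chains inside the cell had positive differences in 13 of 15 entries (median 0.12), with 0 higher and 0 lower. Leprel4 (0.02) and P3h4 (0.04), which are symbols of the same gene, are separate entries among the positive ones. The smallest p belonged to the sugar transferase gene Colgalt1 (0.18 ± 0.08, SE), P4hb, a subunit of prolyl hydroxylase (0.15 ± 0.08), and Ppib, which speeds the folding of the helix (0.12 ± 0.07). Of the entries for folding and export, 7 of 9 were positive (median 0.09), with 0 higher and 0 lower. The negative ones were Ctage5 and Mia2 (-0.14), which are symbols of the same gene. Ctage5, which helps load bulky cargo for export, had -0.23 ± 0.09, the ion channel gene Tmem38b 0.25 ± 0.14, and Sec23a, a coat protein of transport vesicles, 0.15 ± 0.10.

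Genes that cut propeptides and crosslink fibrils had 9 of 10 positive differences (median 0.19), with 2 higher (against 2.68% of all genes) and 0 lower. Pcolce2, an enhancer of propeptide cleavage, had 0.42 ± 0.12 (SE), with an unadjusted p of 0.0119 in limma. The propeptide protease gene Adamts14 had 0.19 ± 0.08 (unadjusted p = 0.0448 in limma), and Bmp1, the protease of the other propeptide end, had 0.26 ± 0.12. Proteins that bind fibrils or basement membranes had 12 of 15 positive (median 0.13), with 3 higher (against 2.68% of all genes) and 0 lower. These were Prelp, a proteoglycan that links fibrils to basement membranes (0.53 ± 0.15), the tenascin gene Tnxb, which affects fibril spacing (0.44 ± 0.15), and the fibronectin gene Fn1 (0.52 ± 0.18).

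Collagen receptors had 7 of 9 positive differences (median 0.11), with 0 higher and 0 lower. The integrin gene Itga11 had 0.30 ± 0.17 (SE), the receptor kinase gene Ddr2 0.11 ± 0.09 and the integrin gene Itga1 -0.08 ± 0.07. Genes of collagen breakdown had 7 of 11 positive (median 0.06), with 2 higher (against 2.68% of all genes) and 0 lower: the protease inhibitor gene Timp1 (0.77 ± 0.25) and the stromelysin gene Mmp3 (0.54 ± 0.18). Mmp9, a gelatinase, had -0.21 ± 0.12. Within slides 1, 2 and 3 the medians were 0.34, 0.42 and -0.06 for propeptide cleavage and crosslinking, 0.30, 0.18 and -0.07 for fibril binding and 0.24, 0.09 and 0.02 for the hydroxylases and sugar transferases.

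Values of markers of the cells in this fat are given beside those of the collagens. The summed level of the 8 fibroblast and progenitor markers, in multiples of the array's 75th percentile, was 79.2 to 87.5 in wild type and 80.8 to 104 in patDp/+ fat. Thy1 had no value on patDp/+ replicate 1. The 80.8 is the sum of that array without Thy1, so it is too low to compare with the other arrays. Of these markers 7 had a positive difference (median 0.20), with 2 higher at an unadjusted p under 0.05 in limma (Thy1 and Icam1), against 2.68% of all genes. The 8 macrophage markers were all positive (median 0.27), with sums of 71.9 to 78.1 and 74.4 to 103, and so were the 8 mesothelial markers (median 0.08), with sums of 31.0 to 42.7 and 38.1 to 49.8. Adipocyte markers had 1 of 8 positive (median -0.10, sums 2198 to 2630 and 2117 to 2297), endothelial markers 0 of 8 (median -0.19, sums 50.3 to 57.0 and 46.7 to 56.3) and smooth muscle and pericyte markers 2 of 8 (median -0.13, sums 38.2 to 60.5 and 46.4 to 50.9). At the same threshold 1 endothelial marker was lower, Emcn (-0.21 ± 0.08, SE), against 2.92% of all genes. Among the remaining marker lists, Acta1 of skeletal muscle was higher (1.30 ± 0.27). Sox9 of cartilage and bone and Spink8 of the epididymis were lower.

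Within slides 1, 2 and 3 the medians of these lists were 0.29, 0.36 and -0.22 for mesothelial, 0.40, 0.44 and 0.05 for macrophage, 0.02, 0.28 and 0.07 for fibroblast and -0.31, -0.29 and 0.07 for endothelial markers, beside 0.21, 0.16 and -0.20 for the collagens. They were -0.18, -0.10 and 0.0011 for adipocyte, 0.07, -0.04 and -0.50 for smooth muscle, 0.22, 0.11 and -0.74 for skeletal muscle and -0.26, -0.46 and 1.18 for blood markers. Among the lists just given, the largest shifts on slide 3 were those of blood and skeletal muscle markers. Of the lists left out there, slide 3 had -0.54 for cartilage and bone and -0.07 for Schwann cell markers. The 1 epididymis marker kept, Spink8, had -1.61 on slide 3. The blood median rests on only 2 genes, Hba-a1 and Alas2, and the skeletal muscle median on 6, since Myh4 and Ckm were not kept. Of 8 epididymis markers 7 were not kept, among them Lcn5, Lcn8 and Crisp1. Spink8 had -1.47 ± 0.56 (SE), and its groups overlapped. It was well above background on 3 wild type arrays but on only 1 patDp/+ array. Schwann cell markers summed to 43.9 to 44.9 in wild type and 43.3 to 46.6 in patDp/+ fat, and blood markers to 178 to 275 and 197 to 365. Of 6 skeletal muscle markers 2 were positive (median -0.20), with sums of 2.28 to 2.69 and 4.19 to 7.65, of which Acta1 made up most. The part of these cell types in the collagen values was not tested.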

How the data were processed

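Per the file headers, Feature Extraction 9.5.1.1 produced an intensity for each spot with its background subtracted. Limma 3.18.2 and Agilent Feature Extraction 9.5 appear in the submitters' processing notes. A log2 table deposited by the authors, with no background correction stated in the sources used here, served as an alternative.

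Values were log2 intensities from which each array's 75th percentile was subtracted. Outlier-marked and control spots were left out, spots of a probe were averaged, and 27975 of 41174 probes were kept. Current symbols came from RefSeq accessions (GRCm38.p6, 27050 probes). Probe coordinates are mm9. Exon and UTR positions were not analysed here. Groups, taken from sample titles, were tested in R 4.3.3 with limma 3.58.1 (two-sided, no covariates, Benjamini-Hochberg over 19194 genes and features), after the code was tested on simulated data. The design text speaks of separate mice, so p-values measure the spread between animals. The source name of every sample reads wild type and was not used.

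Collagen genes and all lists were chosen with earlier results of these data known. Values per array were named for Col1a1, Col1a2, Col3a1, Col4a1, Col4a2, Col6a1, Col6a2, Col14a1, Col15a1 and Col18a1 and up to 4 others per class by smallest p, and up to 3 genes per pathway list. Values per array of Col5a3 and Col6a5 were added after they were seen. The number of arrays limits the precision. Alternatives covered background correction, normalization, filters, probe averaging, slide and replicate blocks, the variance model, array weights and leaving out each array.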

Additional observations from a re-analysis of the deposited data

How the results depend on the processing

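The count of 0 genes past the adjusted threshold held in all 16 alternatives. The count of higher collagens (3 as reported) was 1 with normexp, 1 with the slide as a block and 1 to 5 when an array was left out. The count of lower collagens (2 as reported) was 0 with normexp, 1 with the deposited table, 1 with probes well above background on all 6 arrays, 1 with the slide as a block and 1 to 4 when an array was left out. The median (0.07) was 0.21 with normexp, where the median over all genes was 0.07, and 0.01 to 0.11 when an array was left out.

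The replicate block equals the slide block, since same-numbered arrays shared a slide: 1 collagen was higher (Col14a1) and 1 lower (Col6a6). Deviations of same-numbered arrays correlated at 0.106, -0.0898 and -0.0389 across genes, so the numbers were not taken as pairs of animals.

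With normexp the signs of 14 collagens turned: Col2a1 (-0.031), Col3a1 (-0.125), Col4a2 (-0.036), Col4a3 (0.31), Col6a4 (0.40), Col6a6 (0.24), Col7a1 (0.24), Col8a2 (0.21), Col9a2 (0.42), Col11a1 (0.65), Col13a1 (0.56), Col20a1 (0.36), Col22a1 (0.61) and Col25a1 (0.68). Those that turned negative had means above the array's 75th percentile, and those that turned positive had means below it. All genes tested shifted the same way with normexp, to a median of -0.095 above that percentile and of 0.34 below it. With the deposited table Col1a2 had 9e-04, Col11a2 -0.0064 and Col4a5 -0.014. With quantile normalization Col4a5 had -0.0041 and Col28a1 -5e-04. The sign of class medians turned too. That of the remaining collagens was -5e-04 with quantile normalization, -0.0096 with no filter, -0.0094 with the mean over probes, -0.063 with array weights and -0.017 when wild type replicate 2 was left out. That of FACIT was -0.096 with no filter, -0.0042 with array weights and -0.0033 when wild type replicate 1 was left out. That of type IV was 0.044 when wild type replicate 3 and 0.021 when patDp/+ replicate 3 was left out. That of type VI ranged from -0.058 to 0.16, and that of fibrillar collagens stayed positive. Col23a1 had -0.0094 with the mean over probes and -0.063 with array weights, which gave Col1a2 0.015, Col2a1 -0.031 and Col5a3 -0.0040. When an array was left out, the sign turned at least once for 12 collagens. Their values ranged from -0.10 to 0.052 for Col1a1, -0.16 to 0.062 for Col1a2, -0.15 to 0.20 for Col2a1, -0.038 to 0.101 for Col3a1, -0.24 to 0.23 for Col4a5, -0.047 to 0.58 for Col5a3, -0.11 to 0.11 for Col7a1, -0.27 to 0.038 for Col8a2, -0.19 to 2e-04 for Col20a1, -0.0965 to 0.38 for Col23a1, -0.094 to 0.37 for Col27a1 and -0.19 to 0.41 for Col28a1. The cause was not tested. Values far below the 75th percentile rest on signals close to background.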

Other observations

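The sign of the collagen differences went with the brightness of the probe, in a split chosen after the data were seen. Among the 18 collagens with a mean above the array's 75th percentile, such as Col1a1, Col4a1 and Col18a1, 14 had a positive difference (77.8%, against 48.1% of all genes that bright), with a median log2 difference of 0.17. Among the 17 collagens below it, such as Col6a6, Col11a1 and Col22a1, 6 did (35.3%, against 46.8%), with a median of -0.10. The excess of positive bright collagens was not seen on every slide. It was 77.8% on slide 1 and 82.4% on slide 2 (against 50.9% and 43.4% of all bright genes). On slide 3 it was 33.3% (against 55.3%). For dim collagens the shares were 47.1%, 64.7% and 11.8% (against 54.2%, 49.1% and 39.4% of all dim genes). With the deposited table the counts were 15 of 18 and 4 of 17. With normexp they were 11 of 18 and 17 of 17, while 21.0% of the bright and 89.2% of the dim genes overall were positive. The count for dim collagens thus differed more between these treatments of the signal than the count for bright collagens.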
